A study of Mus musculus with 6 samples.

Results

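A group of 10 genes of mRNA decay and the immediate response to stimuli, out of 55487 genes in the deposited table, were followed in Lin- Sca-1+ c-Kit+ (LSK) bone marrow cells, the fraction that holds the hematopoietic stem and early progenitor cells. They were taken by gene name and are Zfp36, Zfp36l1, Zfp36l2, Btg1, Ier2, Ier3, Ier5, Ppp1r15a, Gadd45b and Rhob. The RNA came from 3 Tespa1+/+ and 3 Tespa1-/- samples, and all 6 were from irradiated mice. Per the methods of the study, mice were male, 8 to 10 weeks old and on a C57BL/6 background, total body irradiation was 5 Gy, and RNA was taken 13 days later, so no unirradiated group enters the comparison. The wild-type mice were littermates per the labels. The knockout is a germline line (B6.129S-Tespa1tm1Smoc), so the deletion is not limited to LSKs. How many mice went into a replicate is not given in the sources used here, so p-values measure the spread between these samples.

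The 3 proteins of the TTP family (Zfp36, or tristetraprolin, Zfp36l1 and Zfp36l2) are zinc-finger proteins that bind AU-rich sequences in the 3′ untranslated region (3′UTR) of an mRNA and bring in the CCR4-NOT complex, which removes the poly(A) tail. BTG1 is an adaptor that binds the deadenylase subunits of the same complex. The Ier genes, Ppp1r15a, Gadd45b and Rhob are switched on within minutes to hours by growth factors, stress or DNA damage, and their mRNAs are mostly short-lived. In blood cell formation, Zfp36l2 is known as a gene that fetal and newborn mice need to keep hematopoietic stem cells, and TTP-family proteins restrain cytokine and cell-cycle mRNAs in lymphocytes and myeloid cells.

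TTP-family mRNAs can themselves carry the element that the family binds, so the 3′UTRs of the 10 genes were searched for the heptamer TATTTAT on the mRNA strand (GENCODE M21, build GRCm38). It was present in 5 of the 10, at 3 copies each in Zfp36, Zfp36l1 and Zfp36l2 and at 4 each in Ier3 and Ppp1r15a, and in none of Btg1, Ier2, Ier5, Gadd45b and Rhob. Of 11874 tested protein-coding genes, 29.6% had at least 1 heptamer and 3.92% had 3 or more. For each of the 5 genes 1 window of 30 bases is given, holding 2 of the heptamers in Zfp36 and in Ier3, 1 in Zfp36l1 and in Zfp36l2, and all 4 in Ppp1r15a. The windows are written in lower case with the heptamers in capitals, because they show which members carry the letters that the TTP family is known to bind.
Zfp36 (chr7:28376954-28376983, minus strand): TATTTATgacgacttTATTTATtgtattaa
Zfp36l1 (chr12:80108167-80108196, minus strand): aaactgttggatTATTTATtttagaaattc
Zfp36l2 (chr17:84184914-84184943, minus strand): aactatttaactTATTTATtatcttgtgaa
Ier3 (chr17:35822480-35822509, plus strand): gtgtctaattaaTATTTATgTATTTATgta
Ppp1r15a (chr7:45522956-45522985, minus strand): tagtttcctatTATTTATTTATTTATTTAT
In Ppp1r15a the 4 heptamers overlapped in 1 run within a 3′UTR of only 76 bases, whereas the 3′UTR of Zfp36l1 was 1835 bases long. A match is a description of these letters and not evidence of binding.

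A promoter of 8 of the 10 genes was found in the RefSeq table (GRCm38.p6), covering 250 bases before the start to 50 after it. A CArG box, the binding motif of serum response factor, was found 58 bases before the start of Zfp36 and in 1.63% of 32817 promoters. The cAMP response element TGACGTCA was found 12 bases before the start of Ppp1r15a and in 1.79% of promoters. The 100 bases upstream of both starts follow, since these motifs are the ones usually linked to rapid induction, with the motif in capitals.
Zfp36 (chr7:28379229-28379328, minus strand): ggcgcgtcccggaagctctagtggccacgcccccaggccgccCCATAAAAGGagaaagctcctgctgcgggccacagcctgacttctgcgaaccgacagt
Ppp1r15a (chr7:45526269-45526368, minus strand): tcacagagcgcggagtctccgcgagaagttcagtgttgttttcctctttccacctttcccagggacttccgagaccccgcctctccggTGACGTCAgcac
More common motifs were shared more widely. TATAAA occurred in 4 of the 8 promoters (Zfp36l1, Btg1, Ppp1r15a and Gadd45b) against 13.6% of all, CCAAT in 6 of 8 against 37.4%, and GGGCGG in 6 of 8 against 35.6%. TATAAA began at -29, -26 and -46 from the start in Zfp36l1, Btg1 and Gadd45b, but at 16, after the start, in Ppp1r15a. TGANTCA, the AP-1 site, occurred in Zfp36l1 and in 7.81% of all promoters. Both strands were searched, and in Zfp36 the CArG box shares its first base with a GGGCGG match on the other strand.

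Library totals ranged from 12856630 to 30576981 counts. The labels were checked on Tespa1, which had 34.5, 32.7 and 36.0 CPM (counts scaled for library size, with TMM scaling between libraries) in Tespa1+/+ libraries and 15.3, 14.3 and 14.2 in Tespa1-/- libraries, that is 42.5% of the wild-type level (log2 fold change -1.23, SE 0.07, edgeR adjusted p = 7.0e-06). These counts cover the whole gene, and the deleted part was not given in the sources used here. LSK markers were present in all libraries, with a summed level of 1281 to 1312 CPM in Tespa1+/+ and 732 to 751 CPM in Tespa1-/- libraries, and 8 of 10 were lower. Of 9 neutrophil markers tested, 7 were higher, and the list summed to 40.6 to 43.0 CPM against 379 to 391 CPM. Cxcr2 (log2 fold change 0.23) and Itgam (-0.57) were not called. Ly6g, too low to be tested, held 0 counts in each Tespa1+/+ library and 4 to 8 in Tespa1-/- libraries. T cell markers summed to 15.6 to 17.0 CPM against 8.13 to 9.10 CPM, and Cd3e held at most 8 counts. Monocyte markers summed to 936 to 945 CPM against 837 to 879 CPM, and erythroid markers to 24.5 to 26.7 CPM against 35.2 to 37.3 CPM, with 3 of 6 tested higher (Hba-a1, Hbb-bs and Slc4a1) and 3 lower (Epor, Klf1 and Ermap). Mast cell, basophil and eosinophil markers summed to 37.6 to 39.6 CPM against 66.2 to 74.1 CPM, with 2 of 5 higher (Prg2 and Epx) and 1 lower. B cell and plasma cell markers summed to 96.8 to 124 CPM against 132 to 142 CPM, with 1 of 8 tested higher (Jchain) and 5 lower. Megakaryocyte markers summed to 72.7 to 80.8 CPM against 61.5 to 63.9 CPM. Stromal and endothelial markers summed to 3.91 to 5.51 CPM against 1.03 to 1.23 CPM. The genotypes did not overlap in any of these sums, and their part in the differences described here was not tested.

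All 10 genes passed the low-count filter and were tested with the 15332 genes of the fit. Zfp36, Zfp36l2, Ier2, Ier5 and Ppp1r15a were lower in Tespa1-/- LSKs at an edgeR adjusted p under 0.05 with a fold over 1.5, that is 5 of 10 where 19.2% of all genes were lower, and 0 of 10 were higher where 14% of all genes were. Without the fold limit 8 of 10 were lower, against 31.8% of all genes, with Btg1, Ier3 and Rhob added, and Gadd45b was the 1 gene that was higher, against 31.5%. Zfp36l1 did not pass. The values of the genotypes did not overlap for 9 of the 10 genes, as for 69.1% of all genes, the exception being Zfp36l1. The median log2 fold change of the 10 was -0.56, against 0.00 over all genes tested. The 10 genes were chosen with earlier results of these data known. Their counts and median, here and further on, are therefore no independent evidence of a direction. In bulk RNA a lower level cannot be told apart from a smaller share of the cells that express the gene.

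**Figure D1:**
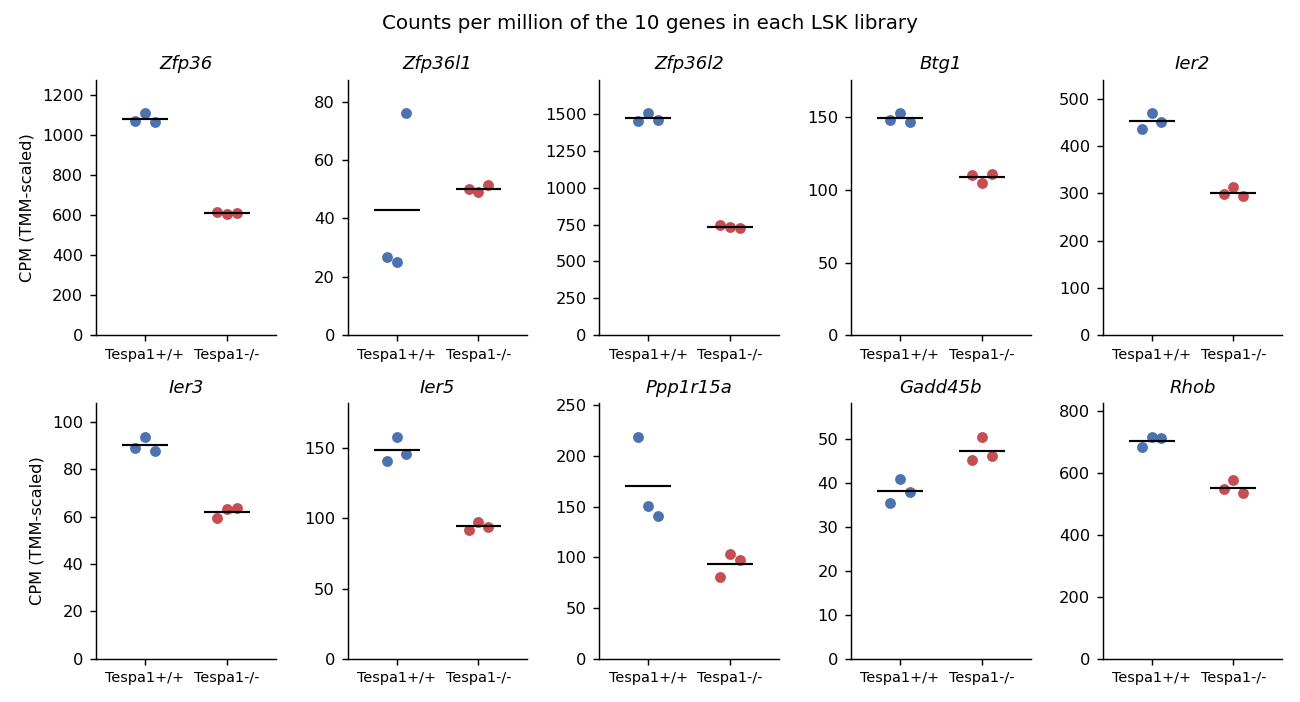
CPM (TMM-scaled, vertical axis from 0) of each of the 10 genes in the 3 Tespa1+/+ (blue) and 3 Tespa1-/- (red) LSK libraries, with the mean of each group as a black line. The genotypes are apart for 9 genes, and for Zfp36l1 a single Tespa1+/+ library at 76.1 CPM lies above all others.

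Within the TTP family, Zfp36l2 and Zfp36 fell and the scarcer Zfp36l1 did not pass the test. Zfp36l2, at chr17:84183931-84187947, had 1454, 1506 and 1459 CPM in the Tespa1+/+ libraries and 749, 731 and 726 CPM in the Tespa1-/- libraries. The lowest wild-type library was well above the highest knockout library, and the level in Tespa1-/- was 49.9% of wild type (log2 fold change -1.00, SE 0.02, edgeR adjusted p = 6.7e-07). Zfp36, at chr7:28376784-28380253, had 1066, 1108 and 1062 CPM in Tespa1+/+ and 613, 604 and 607 CPM in Tespa1-/- libraries. Its Tespa1-/- values varied little (608 ± 4.84 CPM, SD, n = 3) and were 56.4% of wild type (log2 fold change -0.83, SE 0.02, edgeR adjusted p = 1.1e-06). These 2 genes were also the only members that passed a test against a fold of 1.5 itself (edgeR's glmTreat).

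Zfp36l1, at chr12:80107754-80113013, had 26.9, 25.2 and 76.1 CPM in Tespa1+/+ and 50.1, 48.9 and 51.5 CPM in Tespa1-/- libraries. The knockout libraries lay close together, whereas Tespa1+/+ replicate 3 was above all of them and the other two wild-type libraries were below all of them. The coefficient of variation in Tespa1+/+ was 67.6%, against a median of 3.95% over 7935 genes with a mean of at least 20 CPM. The log2 fold change was 0.25 (SE 0.41, edgeR adjusted p = 0.62). Without Tespa1+/+ replicate 3 it was 0.96 (edgeR adjusted p = 8.8e-05), and without Tespa1+/+ replicate 2 it was -0.02 (edgeR adjusted p = 0.965). Of 8962 genes with at least 10 CPM in every library, 56 (0.625%) deviated in that way in Tespa1+/+ replicate 3, with the other two libraries of the genotype within 1.2-fold of each other and replicate 3 more than 1.5-fold from both, and Zfp36l1 was the 1 member among them. In the annotation, 1672 exonic bases of Zfp36l1 are shared with Gm26669, a lincRNA on the opposite strand. The library kit keeps strand, but whether counting used it is not given in the sources used here, so reads of both may be counted together. Zfp36 and Zfp36l2 share 125 and 105 exonic bases with opposite-strand antisense genes, and Ppp1r15a shares 12 with Tulp2.

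Levels of different genes were compared as CPM per kilobase of union exon length. On this scale the family summed to 742 ± 13.3 in Tespa1+/+ and 400 ± 4.68 in Tespa1-/- LSKs (SD, n = 3), which is 53.9% of wild type. Zfp36l2 gave 56.2% ± 0.619 of the family level in Tespa1+/+ and 52.0% ± 0.307 in Tespa1-/- libraries. Zfp36 gave 41.9% ± 0.678 and 43.8% ± 0.200, and Zfp36l1 1.92% ± 1.30 and 4.19% ± 0.122. With the deposited FPKM values, whose length per gene is longer than the union exon length for Zfp36 and Zfp36l1, the share of Zfp36l2 was 66.2% ± 0.424 and 62.6% ± 0.279, that of Zfp36 32.6% ± 0.378 and 34.8% ± 0.208, and that of Zfp36l1 1.18% ± 0.800 and 2.62% ± 0.0800. The difference had the same sign on both scales for each gene, and each gave p = 0.1 in an exact two-sided permutation test, the smallest p that 3 against 3 samples allow.

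**Figure D2:**
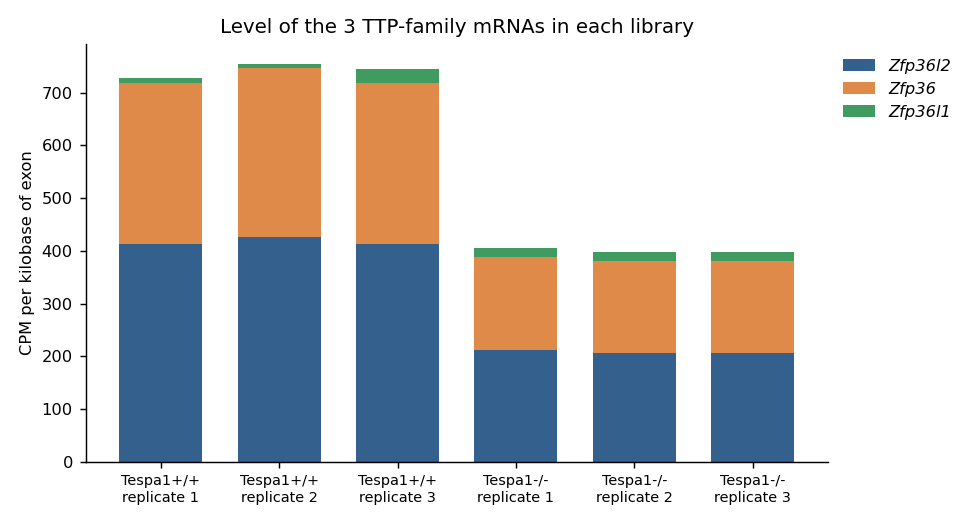
Stacked level of Zfp36l2, Zfp36 and Zfp36l1 (CPM per kilobase of union exon, vertical axis) in each of the 6 libraries. The summed level is near 742 in Tespa1+/+ and near 400 in Tespa1-/- libraries, and Zfp36l1 is a thin layer in all of them.

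Btg1, the deadenylation adaptor, at chr10:96617006-96622809, had 148, 153 and 147 CPM in Tespa1+/+ and 110, 105 and 111 CPM in Tespa1-/- libraries. The groups did not overlap, and the fall to 72.7% of wild type stayed under the 1.5-fold limit (log2 fold change -0.46, SE 0.04, edgeR adjusted p = 4.7e-05). Of its 4 tested relatives 3 fell. Btg2, an antiproliferative gene with the same deadenylase-binding domain, fell from 151 ± 5.24 to 62.6 ± 1.66 CPM (log2 fold change -1.27, SE 0.04, edgeR adjusted p = 1.3e-06). Tob1 and Tob2, which link deadenylases to poly(A)-binding protein, fell by 0.68 and 0.67 on the log2 scale (edgeR adjusted p = 0.00105 and 8.7e-06). After length correction Btg2 (-1.35) and Tob1 (-0.82) kept their calls, and Tob2, at -0.35, did not pass the fold limit. Btg3 had 6.28 ± 0.297 and 7.87 ± 1.22 CPM and did not pass (log2 fold change 0.33, edgeR adjusted p = 0.0607), and Btg4 was too low to be tested. Btg1 and Btg2 were at 150 and 151 CPM in wild type, and at 109 and 62.6 CPM in the knockout.

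All 3 Ier genes fell. Ier2, a nuclear immediate-early protein, at chr8:84661331-84662854, had 436, 470 and 451 CPM in Tespa1+/+ and 298, 313 and 294 CPM in Tespa1-/- libraries. Its fall to 66.6% of wild type lay at the 1.5-fold limit (log2 fold change -0.59, SE 0.04, edgeR adjusted p = 1.5e-05). Ier3, a stress-induced regulator of cell survival, at chr17:35821684-35822923, had 89.1, 93.7 and 87.5 CPM against 59.5, 63.4 and 63.5 CPM, a fall to 68.9% that stayed just under the limit (log2 fold change -0.54, SE 0.05, edgeR adjusted p = 5.8e-05). Ier5, a radiation-inducible gene whose protein acts on heat shock factor HSF1, at chr1:155096361-155099636, had 141, 158 and 146 CPM against 91.9, 97.5 and 94.0 CPM (63.6% of wild type, log2 fold change -0.65, SE 0.05, edgeR adjusted p = 3.3e-05). For each of the 3 the lowest wild-type library was above the highest knockout library. The relative Ier5l, at 4.32 ± 0.502 and 5.67 ± 0.401 CPM, was higher in Tespa1-/- LSKs without passing the fold limit (log2 fold change 0.41, SE 0.13, edgeR adjusted p = 0.0281), and did not pass after length correction (0.32, adjusted p = 0.0735).

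Among the stress-response regulators, Ppp1r15a fell, Rhob fell by less and Gadd45b was slightly higher. Ppp1r15a encodes GADD34, the subunit that directs protein phosphatase 1 to phosphorylated eIF2α and so restores translation. At chr7:45522916-45526268, it had 219, 151 and 141 CPM in Tespa1+/+ and 80.4, 103 and 97.0 CPM in Tespa1-/- libraries, with Tespa1+/+ replicate 1 high and the groups still apart. The log2 fold change was -0.86 (SE 0.18, edgeR adjusted p = 0.00389), and -0.64 without that library. Rhob, a short-lived GTPase of endosomes induced by growth factors and DNA damage, at chr12:8497661-8500009, had 685, 718 and 714 CPM against 548, 577 and 536 CPM (log2 fold change -0.35, SE 0.04, edgeR adjusted p = 1.2e-04). Gadd45b, an activator of the kinase MAP3K4 in p38 and JNK signalling, at chr10:80930073-80932204, had 35.6, 41.0 and 37.9 CPM against 45.3, 50.6 and 46.2 CPM. It was the 1 member whose knockout libraries were all above the wild-type ones (log2 fold change 0.31, SE 0.07, edgeR adjusted p = 0.0074), and that call did not hold after correction for gene length, described further on.

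Of the 4 tested relatives of these regulators, 2 rose past the fold limit. Gadd45a and Gadd45g, which share the MAP3K4-binding fold of Gadd45b, rose from 30.7 ± 1.27 to 74.1 ± 2.42 CPM and from 14.6 ± 1.18 to 37.5 ± 3.66 CPM. Their log2 fold changes were 1.27 (SE 0.05, edgeR adjusted p = 2.3e-06) and 1.36 (SE 0.10, edgeR adjusted p = 2.1e-05). Ppp1r15b, the constitutive counterpart of Ppp1r15a, went from 201 ± 3.26 to 171 ± 3.90 CPM (log2 fold change -0.23, SE 0.03, edgeR adjusted p = 5.3e-04). Rhoa went from 356 ± 9.57 to 422 ± 9.92 CPM (log2 fold change 0.24, SE 0.03, edgeR adjusted p = 4.1e-04), and Rhoc was too low to be tested. Ppp1r15b and Rhoa passed at the adjusted p but not at the 1.5-fold limit. After length correction Ppp1r15b was at 0.00 (adjusted p = 1) and Rhoa at 0.62 (adjusted p = 9.2e-06), past the fold limit, while Gadd45a (1.06) and Gadd45g (1.05) kept their calls. The differences between relatives were not tested.

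**Figure D3:**
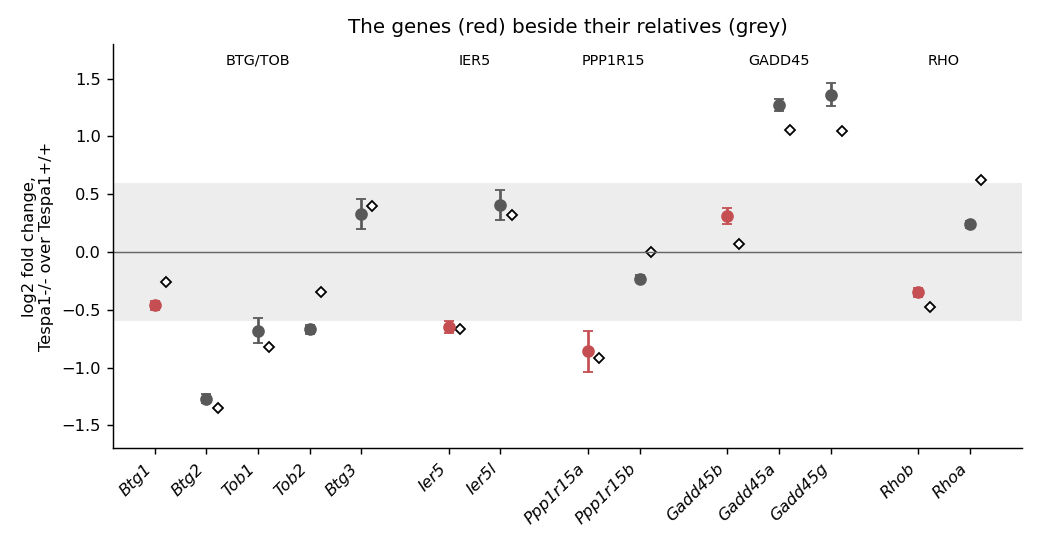
Log2 fold change (Tespa1-/- over Tespa1+/+, vertical axis) of Btg1, Ier5, Ppp1r15a, Gadd45b and Rhob (red) and their relatives (grey), with SE as bars and the length-corrected value as an open diamond. The grey band is within 1.5-fold. Btg2 lies at -1.27, and Gadd45a and Gadd45g lie at 1.27 and 1.36.

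Per kilobase of exon, the genes fell into a high and a low tier. In Tespa1+/+ LSKs the order of means was Zfp36l2 (417), Zfp36 (311), Rhob (300), Ier2 (297), Ier3 (79.7), Ppp1r15a (57.9), Ier5 (45.3), Btg1 (28.3), Gadd45b (24.0) and Zfp36l1 (14.3), in CPM per kilobase. Rhob and Ier2, Ppp1r15a and Ier5, and Gadd45b and Zfp36l1 overlapped in their ranges, and the other neighbours did not. Zfp36 (306 to 319) also overlapped Ier2 (287 to 309), which is not its neighbour. The lowest Zfp36 and the highest Rhob library both round to 306. In Tespa1-/- LSKs Rhob came first (236), followed by Zfp36l2 (208), Ier2 (198) and Zfp36 (175), of which only Zfp36l2 and Ier2 overlapped. Ier3 (54.9) came next, and Ppp1r15a (31.9), Gadd45b (29.8) and Ier5 (28.8) overlapped one with the next, above Btg1 (20.6) and Zfp36l1 (16.8). The order depends on the length used for each gene. By deposited FPKM, Zfp36 (209 to 218) was below Rhob (302 to 316) and Ier2 (296 to 318) in Tespa1+/+ libraries. In the same libraries Ppp1r15a (26.4 to 40.9) was below Ier5 (44.7 to 49.8).

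Gene length moved with the fold changes over the whole table. Among genes with a mean of at least 10 CPM, split into 10 equal bins by union exon length, the median log2 fold change went from 0.65 in the bin with the shortest exons (up to 1274 bases) to -0.55 in the bin with the longest (9933 bases and more). The members are mostly short, and 9 of 10 lay in bins whose median was above 0. Ier3, of 1131 bases, was at -0.54 where the median of its bin was 0.65, Ier2, of 1522 bases, at -0.59 where it was 0.46, and Zfp36l2, of 3530 bases, at -1.00 where it was 0.19. Btg1, of 5276 bases, was at -0.46 in a bin with a median of -0.12. When the trend was removed within edgeR, Ier2 and Ier3 moved to -0.84 and -0.85 (adjusted p = 7.2e-06 and 1.9e-05), so that all 3 Ier genes passed the fold limit, and 6 of 10 members were called lower, against 14.2% of all genes under the same correction, and 0 higher, against 9.9%. Zfp36l2 (-0.99), Zfp36 (-0.82), Ppp1r15a (-0.92) and Ier5 (-0.67) stayed close to their uncorrected values. Rhob moved to -0.48 and Btg1 to -0.26, both with an adjusted p under 0.05, and Gadd45b moved to 0.07 with an adjusted p of 0.44. The median of the 10 was -0.75 after correction, against 0.07 over all genes. The cause of the length trend was not tested.

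**Figure D4:**
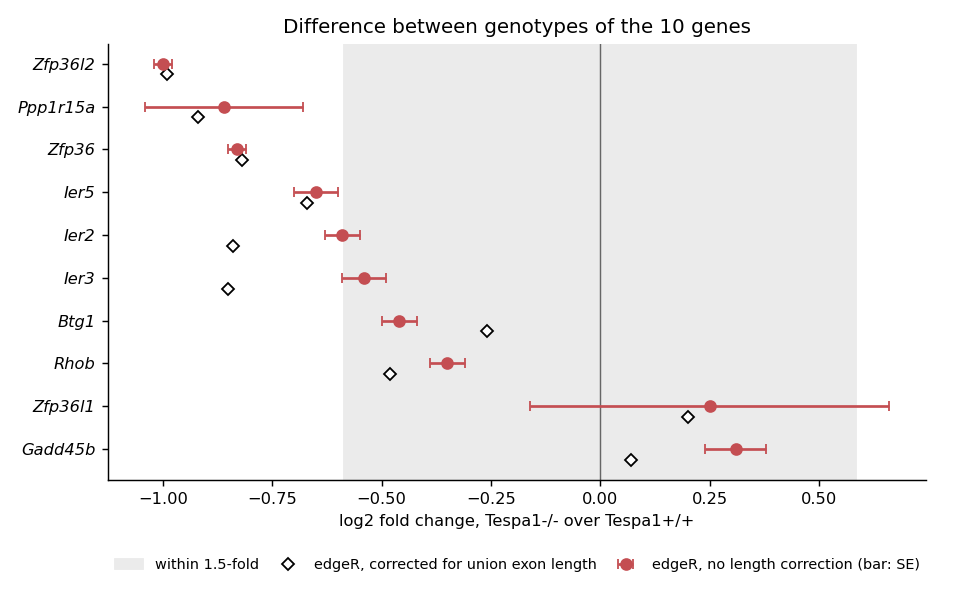
Log2 fold change (Tespa1-/- over Tespa1+/+, horizontal axis) of the 10 genes from edgeR (red, bars are SE) and after correction for union exon length (open diamonds), with the band within 1.5-fold in grey. Zfp36l2 and Ppp1r15a lie furthest left on both, Ier3 leaves the band after correction, Ier2 moves from its edge to -0.84, and Gadd45b moves from 0.31 to 0.07.

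In the machinery that TTP-family and BTG proteins recruit, 2 of 11 and 3 of 13 genes were called lower, a share near the 19.2% of all genes, and none of these 5 was called after length correction. Of 11 CCR4-NOT genes 2 were lower, 0 higher and 9 not called (median -0.04). The scaffold Cnot1 fell from 435 ± 17.1 to 207 ± 5.28 CPM (log2 fold change -1.07) and the deadenylase Cnot6l from 145 ± 3.93 to 82.4 ± 8.62 CPM (-0.82), with edgeR adjusted p = 1.5e-06 and 6.4e-05. After length correction these values were -0.32 and -0.29, and 0 of 11 were called. Of 13 other deadenylation, decapping and exonuclease genes, 3 were lower, namely the deadenylase cofactor Pan3 (-1.09), the 5′ to 3′ exonuclease Xrn1 (-0.89) and the decapping enzyme Dcp2 (-0.60). Lsm1, of the decapping-activating LSM ring, was higher (0.64). After length correction 0 of the 13 were lower and 2 were higher. The list median moved from -0.36 to 0.05.

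Of 12 other RNA-binding regulators of mRNA turnover, 4 were lower and 0 higher (median -0.24), and 1 was lower and 1 higher after length correction. Over all genes tested, 19.2% were lower and 14% higher, and 14.2% and 9.9% after length correction. Among the 4, Zc3h12d had a mean count of only 32.7. Zc3h12a, the endonuclease Regnase-1, was at 41.3 ± 1.89 and 18.4 ± 2.43 CPM (log2 fold change -1.16, edgeR adjusted p = 5.2e-05) and was at -1.23 after correction. Rc3h1 and Rc3h2, the Roquin proteins that bind stem-loops, were at -1.55 (SE 0.54, edgeR adjusted p = 0.0378) and -0.69 (edgeR adjusted p = 5.8e-05). After correction they were at -0.98 and 0.12 with adjusted p = 0.155 and 0.116. Of the 10 p38, MK2 and 14-3-3 genes, whose proteins phosphorylate TTP or bind it once phosphorylated, 1 was lower and 0 higher (median 0.17). At the adjusted p alone 3 were lower and 5 higher. After length correction 0 were lower and 1 was higher, namely Mapkapk3 (0.60, edgeR adjusted p = 7.3e-06). Mapk14, which encodes p38α, was at 174 ± 63.7 and 97.9 ± 30.2 CPM with overlapping groups (log2 fold change -0.83, SE 0.29, edgeR adjusted p = 0.0414), and did not pass after length correction (adjusted p = 0.0713).

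Transcripts described as TTP-family targets were lower wherever they passed the fold limit. Of 21 tested of 23 listed, 10 were lower, 0 higher and 11 not called (median -0.36). After length correction 9 were lower and 0 higher (median -0.47). Over all genes tested, 19.2% were lower and 14% higher, and 14.2% and 9.9% after length correction. Among the 10, Il10 and Cxcl1 had mean counts of only 15 and 18. This list was written with earlier results of these data known, so its count is no independent evidence of a direction. The cytokine Lif fell from 20.6 ± 1.11 to 4.34 ± 0.749 CPM (log2 fold change -2.25, edgeR adjusted p = 7.9e-06), the receptor Notch1 from 260 ± 5.56 to 77.5 ± 2.69 CPM (-1.74, edgeR adjusted p = 4.1e-07), and the survival gene Bcl2 from 185 ± 2.62 to 91.9 ± 6.92 CPM (-1.01, edgeR adjusted p = 7.6e-06). After length correction Lif (-2.14) and Notch1 (-1.08) kept their calls, and Bcl2, at -0.54, did not pass the fold limit. Several listed genes are immediate-response genes too, among them Fos. Over the whole table, 8360 genes without the heptamer had a median log2 fold change of 0.04, 2269 genes with 1 copy -0.18, 779 with 2 copies -0.32 and 466 with 3 or more -0.40. The median 3′UTR length rose over the same classes from 851 to 3246 bases, and after length correction the medians were 0.12, 0.07, -0.01 and -0.04. Within quartiles of 3′UTR length, shortest first, the length-corrected medians without and with the heptamer were 0.22 and 0.20, 0.10 and 0.09, 0.05 and 0.02, and 0.02 and 0.01. These medians are descriptions across genes, which are not independent replicates.

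Most other immediate-response genes were lower. Of 29 tested of 31 listed, 21 were lower and 0 higher (median -0.76), and 20 were lower after length correction (median -0.89). Over all genes tested, 19.2% were lower, and 14.2% after length correction. The zinc-finger transcription factors Egr3 and Egr1 fell by 2.99 and 2.78 on the log2 scale, and the nuclear receptor Nr4a3 by 2.93 (edgeR adjusted p = 8.3e-06, 3.7e-08 and 3.5e-06). Egr1 was at 588 ± 4.23 and 85.5 ± 1.79 CPM, that is 14.5% of wild type, while the member that fell most, Zfp36l2, was at 49.9%. Parts of this list were known to be lower in these data when it was written, so its count is no independent evidence of a direction.

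Lists tied to single members were less uniform. Of 11 genes around eIF2 phosphorylation, the step that the Ppp1r15a product counters, 2 were lower and 1 was higher (median 0.11). The eIF2α kinases Eif2ak4 (GCN2) and Eif2ak2 (PKR) fell by 0.70 and 0.67 on the log2 scale, and the eIF2β gene Eif2s2 rose from 119 ± 3.09 to 236 ± 20.2 CPM (log2 fold change 0.99, edgeR adjusted p = 1.2e-05). At the adjusted p alone 3 of the list were lower and 4 higher. After length correction 0 were lower and 2 higher (median 0.31). Neither kinase then passed the fold limit (-0.33 and -0.48), while Eif2s2 was at 1.32 and Ppp1cb at 0.96 (edgeR adjusted p = 0.0104). Of 6 GADD45 partners 0 passed the fold limit under edgeR in either direction (median -0.03), while at the adjusted p alone 1 was lower and 3 were higher. Of 11 heat shock and chaperone genes, which include targets of the factor that IER5 acts on, 3 were lower and 1 higher (median 0.00). Hspa1a and Hspa1b, near-identical copies whose reads may be split by the counting, were at -0.75 and -0.71, and the mitochondrial chaperonin Hspe1 was at 0.75 (edgeR adjusted p = 1.8e-06, 2.8e-06 and 2.5e-06). After length correction 3 of the list were lower and 2 higher (median 0.37). Hspa1a (-0.80) and Hspa1b (-0.78) kept their calls, and Hspe1, at 0.49, did not pass the fold limit.

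**Figure D5:**
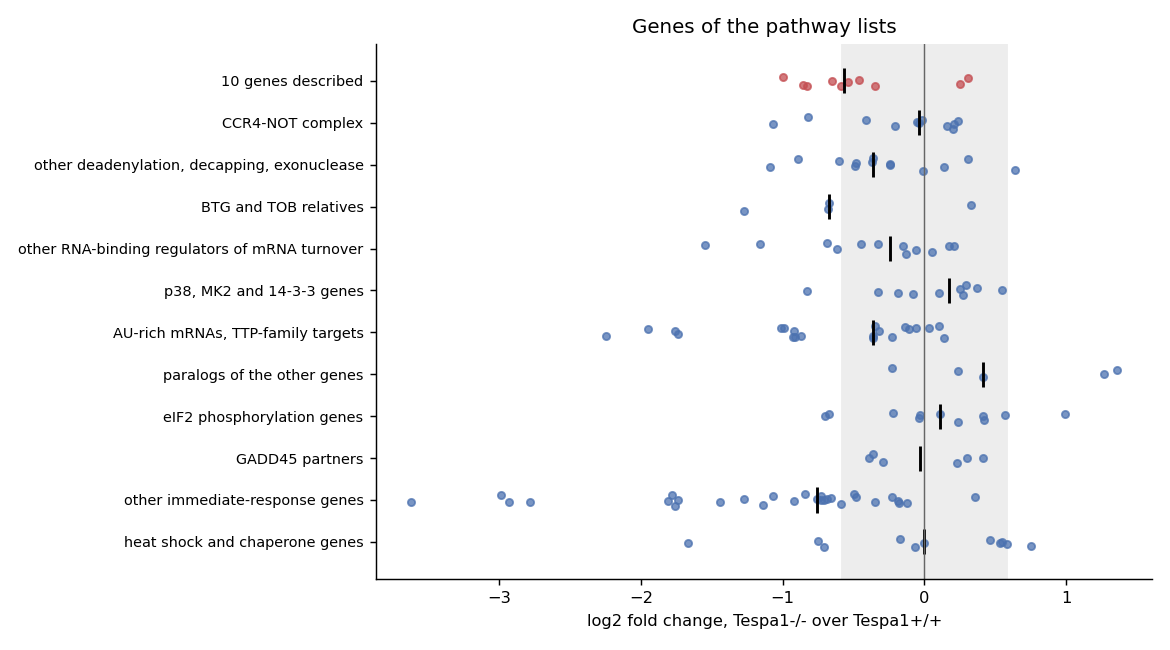
Log2 fold change (Tespa1-/- over Tespa1+/+, horizontal axis) of each tested gene (points) of the 10 genes described (red) and of 11 pathway lists (blue), with the median of each as a black bar and the band within 1.5-fold in grey. Vertical scatter within a row carries no value. The median is -0.76 for other immediate-response genes, -0.56 for the 10 genes and -0.04 for the CCR4-NOT complex.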

How the data were processed

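RNA-seq of poly-A RNA from 3 Tespa1+/+ and 3 Tespa1-/- LSK samples was used, grouped by sample title. The authors deposited 1 table with a raw count and an FPKM value per gene and sample. The submitters' processing notes name CASAVA 1.8, HISAT2, StringTie, edgeR and build GRCm38, and use of strand is not given in the sources used here. The deposited FPKM values scale the count by sample total and 1 length per gene. Counts were filtered with filterByExpr, scaled with TMM and tested with the quasi-likelihood F-test of edgeR 4.0.16 (R 4.3.3), and p-values of the 15332 genes were adjusted by the Benjamini-Hochberg method. A call needed a fold over 1.5, as in the study, and an adjusted p below 0.05. The SE came from the fold change and F statistic. The length correction is a loess fit (span 0.5) of each library's log2 CPM deviation on log2 length, used as an offset. Other settings were RLE factors, total counts, no filter, 10 counts in every sample, DESeq2 1.42.0, glmTreat, unadjusted p, a replicate block, leaving out each library, and limma-trend (limma 3.58.1) on log2(FPKM + 1) and log2(FPKM + 0.1). Scripts were tested on simulated data. List genes named in the text are the called genes with the largest changes, at most 3 per direction with a mean count of at least 100, and all relatives of members are named. The members and lists were chosen with earlier results of these data known. Ddit3 matched 2 rows and was left out.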

Additional observations from a re-analysis of the deposited data

How the results depend on the processing

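Of the 10 genes, Zfp36 and Zfp36l2 kept their direction in all 18 alternatives, with an adjusted p under 0.05 wherever one was given. The setting with the unadjusted p reused the main fit and gave none. Their log2 fold changes ran from -0.93 to -0.80 for Zfp36 and from -1.10 to -0.98 for Zfp36l2. Tested against a fold of 1.5 itself (glmTreat), 2 members were lower, and 1807 genes were lower and 1020 higher over the table. Ier5 (-0.65), Ppp1r15a (-0.86), Ier2 (-0.59), Ier3 (-0.54), Btg1 (-0.46), Rhob (-0.35) and Gadd45b (0.31) did not pass that test, which is stricter by construction. The first 6 of these kept their direction in every other alternative, with an adjusted p under 0.05 wherever one was given. Gadd45b was at 0.17 (adjusted p = 0.0745) and 0.07 (adjusted p = 0.44) under the corrections for the length implied by the deposited values and for union exon length, which left 0 members higher at any fold, and 11 pathway list genes higher under either correction, against 5 without. Leaving out 1 library gave 4 to 5 members lower, since Ier2 lies at the fold limit, 0 to 1 higher, and 1 to 2 higher at any fold. Zfp36l1 then ranged from -0.02 to 0.96. With limma-trend the table had 1626 lower and 1070 higher genes at a pseudocount of 1, and 1365 higher at 0.1, among fewer genes tested. Total counts without factors shifted the median by -0.10 and left 29.8% of calls higher, against 42.1%, with 6 members lower. On CPM per kilobase of union exon, a scale added after seeing the data, the shares of Zfp36l1 and Zfp36l2 differed by 2.27 and -4.18 percentage points, against 1.44 and -3.64 with FPKM. With the replicate block, 5 members were lower and 0 higher, and 2871 genes lower and 2101 higher. Samples of the same number did not deviate together (correlations -0.0728, -0.0783 and 0.0136), so no pairing by number was seen, though a small shared effect could be missed. The scarcest relatives, Btg4 and Rhoc, had mean counts of 0.167 and 5 per library and were not tested.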
